A study of Mus musculus with 2 samples.

Results

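Proteins that bind pre-mRNA and steer splice-site choice were examined in the hearts of male B6CASTF1/J mice aged 14 days, F1 hybrids between C57BL/6J and CAST, sequenced as long cDNA reads in 2 libraries of 1 group (replicate 1 and replicate 2). The animals carried no labelled treatment, deletion or transgene. Members were the protein-coding genes named Srsf, Hnrnp, Rbfox, Mbnl, Celf, Rbm or Ptbp with a number or suffix, and Qk. Of 86 such genes in the annotation 75 had counts in at least 1 library and 74 had counts in both, among 16269 reference genes detected. Both libraries carry the same donor label, the labels write 3x males for each tissue sample and do not say whether these were pooled, and the library notes of both name the same sample and cDNAs, so SDs (n = 2) measure the spread between these samples and may be partly technical.

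SR proteins (Srsf genes) carry a domain rich in serine and arginine and mostly promote the use of exons they bind. The hnRNP proteins coat nascent transcripts and often act against exon use, and the muscleblind (Mbnl), Celf, Rbfox, Ptbp and quaking (Qk) proteins set tissue-specific programmes, with Rbm20 and Rbm24 acting in striated muscle. Many of these genes are known to regulate themselves through exons or introns whose inclusion places a stop codon early in the message, which marks it for nonsense-mediated decay.

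Exons found only in annotated decay transcripts were present in the heart reads, most of them in a small part of the counts. Of 34 annotated exons that, by exact start and end, occur only in nonsense_mediated_decay transcripts of members and that any read could report on (21 genes), 19 had at least 1 inclusion count. Some of them overlap exons of coding transcripts. The 268-base exon of Srsf6 starts where a 165-base exon of a coding transcript starts. The 90-base exon of Srsf9 ends where a 79-base exon of a coding transcript ends. Inclusion is the share of counts that contain an exon among those that contain or skip it. Over all these exons it was 5.0% in replicate 1 (119 of 2381 counts) and 4.13% in replicate 2 (113 of 2733). These pooled counts are not separate reads, since a read entered once for each exon it could report on. Rbm39, with 435 counts in all, entered with 427, 422, 420, 408, 368 and 40 counts at its exons. A pair of Srsf4 exons stood apart with few counts. The 207-base exon was in 9 of 10 and 5 of 5, and the 174-base exon in 12 of 12 and 7 of 8. These are not shares of all messages of the gene, since 138 of its counts (83.1%) lay on the coding transcript Srsf4-202. Without Srsf4 the pooled inclusion was 4.15% and 3.71%. The sequences that end the reading frame in 6 of the 34 exons are shown from the first base of the exon to the stop codon, which is in capitals. They are reference bases of GENCODE M21 transcripts on mm10, 5′ to 3′ on the transcript strand. None was read from the animals, whose CAST alleles may differ.
Srsf3, 456-base exon: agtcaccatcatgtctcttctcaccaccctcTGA
Srsf6, 268-base exon: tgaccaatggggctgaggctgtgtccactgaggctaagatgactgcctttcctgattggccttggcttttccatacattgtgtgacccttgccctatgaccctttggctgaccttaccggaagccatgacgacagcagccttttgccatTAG
Srsf7, 460-base exon: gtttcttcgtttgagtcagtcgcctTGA
Hnrnpll, 83-base exon: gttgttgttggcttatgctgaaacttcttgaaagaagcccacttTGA
Rbm39, 73-base exon: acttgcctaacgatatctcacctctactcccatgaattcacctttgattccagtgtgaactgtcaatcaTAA
Rbm7, 105-base exon: tatttgaggcagagagccataTAG
Ahead of the stop lay 21 bases of the exon in Rbm7, 25 in Srsf7 and 31 in Srsf3, but 149 in Srsf6. The shown Srsf6 stretch lies within the 165-base exon that a coding transcript has. In Rbm39 (chr2:156178880-156178952) the stop codon ended 1 base before the end of the exon.

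As CPM, counts scaled to the library's total on reference genes, the members together took 0.621% of replicate 1 (6572 counts) and 0.693% of replicate 2 (7375 counts), 0.657% ± 0.051 on average. Each library held 1107678 and 1110707 counts in all, so 1 count was worth 0.944 and 0.939 CPM. A read counts as 1 cDNA whatever its length, so levels were not divided by transcript length. The level of a gene in bulk tissue joins the number of cells that express it with the RNA per cell, and these cannot be told apart. The hnRNP genes held 47.2% of the members' counts on 20 genes, the 35 Rbm genes 29.9%, and the 10 Srsf genes 12.9%. The 6 highest members held 40%. The highest member ranked 178th among all detected genes and 11 members were among the top 1000, while 6 had fewer than 10 counts over both libraries. No count fell on 11 annotated genes: Srsf12, Celf3, Celf4, Celf5, Celf6, Rbfox3, Mbnl3, Rbm8a2, Rbm11, Rbm31y and Rbm44. Several of these are known from neurons or testis, and 3 counts, the floor used here, correspond to 2.83 CPM in replicate 1 and 2.82 CPM in replicate 2.

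**Figure D1:**
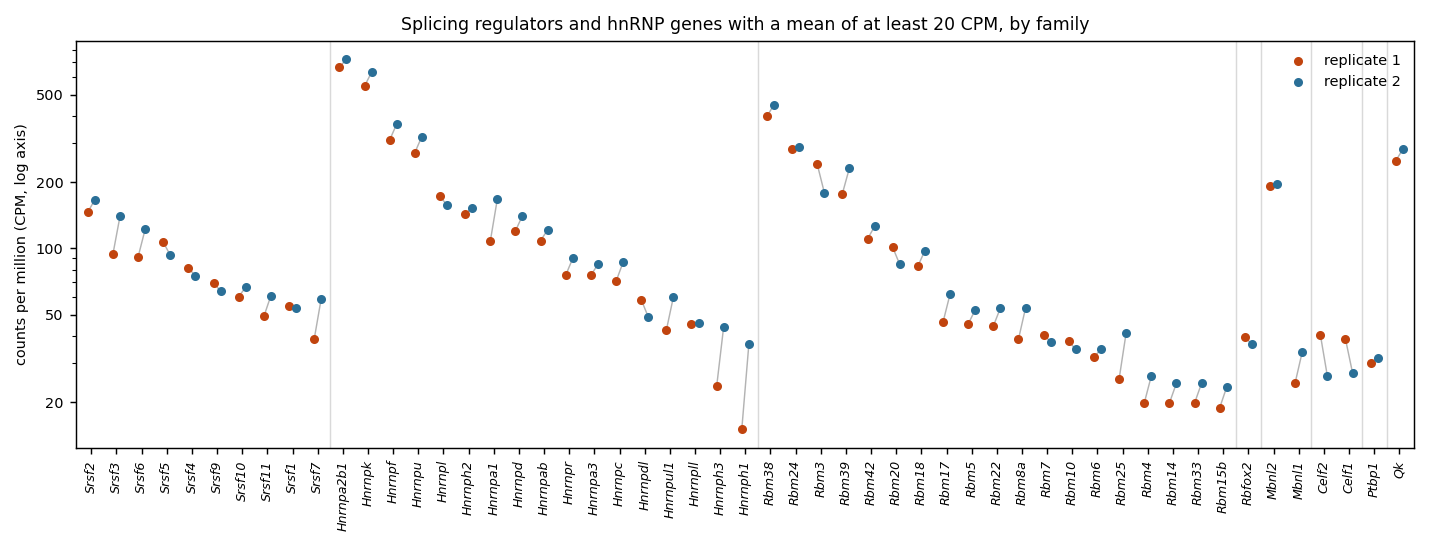
Levels of the members with a mean of at least 20 CPM, by family, on a log axis. Orange points are replicate 1 and blue points replicate 2, joined by a line. Hnrnpa2b1 (665 and 723 CPM), Hnrnpk (546 and 630 CPM) and Rbm38 (398 and 450 CPM) stand highest.

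Among SR protein genes, Srsf2 had 146 CPM in replicate 1 and 166 CPM in replicate 2, Srsf3 94.4 and 140 CPM, Srsf6 91.6 and 122 CPM, and Srsf5 107 and 93.0 CPM. Srsf2 (156 ± 14.1 CPM) was the highest of these 4 genes in both libraries, while the order of the other 3 changed between the libraries. Srsf1, the founding splicing factor of the family, had 54.8 and 53.5 CPM, and Srsf10, a splicing repressor in its dephosphorylated form, 60.4 and 66.7 CPM. All 10 detected Srsf genes averaged between 48.9 and 156 CPM, a narrower range than in the hnRNP family (7.99 to 694 CPM). Over both libraries the family carried 2.00% of its counts on annotated retained_intron transcripts and 2.72% on nonsense_mediated_decay transcripts.

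Srsf3 (ENSMUSG00000071172.13) used the 456-base exon at chr17:29039454-29039909 in 12 of 95 counts in replicate 1 and 17 of 134 in replicate 2, an inclusion of 12.6% and 12.7%. The decay transcript Srsf3-201 alone drew 29 counts against 195 on the coding Srsf3-202. Srsf7 included the 460-base exon shown above in 1 of 28 and 3 of 45 counts, and Srsf6 its 268-base exon in 5 of 89 and 4 of 119. Srsf9 had a pair of decay exons, of 358 and 90 bases, the first in 5 of 74 counts in replicate 1 and 6 of 65 in replicate 2 and the second in 4 of 73 (5.48%) and 9 of 66 (13.6%). Of 138 reads across both Srsf9 exons, 8 held both, 4 the 90-base exon alone and 2 the 358-base exon alone. An annotated 36-base coding exon of Srsf7 was included in 85% of counts in replicate 1 and 85.5% in replicate 2.

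Whole introns were also kept in SR messages. In Srsf5 the 1229-base intron at chr12:80947866-80949094 was kept in 33 counts and removed in 64 in replicate 1, and kept in 43 and removed in 46 in replicate 2, a retention of 34% and 48.3%. Srsf7 kept the 874-base intron around its decay exon in 27.0% and 22.2%, Srsf1 a 196-base intron in 14.0% and 22.7%, and Srsf2 a 1059-base intron in 17% and 17.9%. A 502-base stretch that the annotation removes in several Srsf2 transcripts was present in 85.2% and 78.5% of counts. The main coding transcript Srsf2-201 (227 counts) does not have it as an intron, so its presence there is not retention. In Srsf3 the 2150-base intron that holds the decay exon was kept whole in 2 counts and removed in 83 in replicate 1, and kept in 12 and removed in 117 in replicate 2 (2.35% and 9.30%). Of the spliced Srsf5 counts that could be read from an annotated start codon, 36.4% and 47.7% met a stop more than 50 bases before the last junction, an early stop.

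Introns of members that were removed in at least 50% of the counts numbered 428 with enough coverage, and 16 of them (3.74%) were kept in 5% or more of counts, against 634 of 44046 (1.44%) over all protein-coding genes. Overlapping introns each count here, such as those of Hnrnpa2b1 and of Srsf7, so the 16 are not all separate events. At 10% or more the shares of introns kept were 2.10% and 0.620%. These are descriptions with no test, since an intron kept in a read is also what unspliced RNA leaves, and the part of unspliced RNA was not tested.

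The most abundant hnRNP gene was Hnrnpa2b1, with 665 CPM in replicate 1 and 723 CPM in replicate 2, followed by the poly(C)-binding Hnrnpk with 546 and 630 CPM. Hnrnpf, which binds runs of G, had 311 and 367 CPM, and Hnrnpu, a large nuclear scaffold protein, 272 and 322 CPM. The order of these 4 was the same in both libraries. Hnrnpl had 173 and 157 CPM, Hnrnph2 144 and 153 CPM, and Hnrnpd 120 and 141 CPM. At the low end, Hnrnpul2 had 0.944 and 15 CPM and Hnrnpa0 9.44 and 7.51 CPM. The family carried 10 of 3047 counts in replicate 1 and none of 3536 in replicate 2 on retained_intron transcripts, and 0.866% over both libraries on nonsense_mediated_decay transcripts.

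Several hnRNP genes split between coding forms that differ by a cassette exon of whole codons, which apart from the 57-base exon of Hnrnpd lies in the glycine-rich tail of the protein. The exons below were coding exons of intermediate inclusion with high counts, and each is in capitals between 12 bases of the neighbouring exons.
Hnrnpd, 57 bases: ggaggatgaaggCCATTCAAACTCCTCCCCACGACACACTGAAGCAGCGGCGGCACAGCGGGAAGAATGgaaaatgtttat
Hnrnpd, 147 bases: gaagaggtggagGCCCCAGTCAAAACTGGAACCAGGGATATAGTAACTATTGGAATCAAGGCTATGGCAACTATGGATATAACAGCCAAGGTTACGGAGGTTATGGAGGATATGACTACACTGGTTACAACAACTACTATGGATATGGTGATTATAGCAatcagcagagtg
Hnrnpab, 141 bases: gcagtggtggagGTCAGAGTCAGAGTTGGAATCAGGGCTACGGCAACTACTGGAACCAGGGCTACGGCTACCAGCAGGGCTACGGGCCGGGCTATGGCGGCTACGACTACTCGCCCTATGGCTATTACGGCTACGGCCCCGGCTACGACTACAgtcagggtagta
Hnrnpa2b1, 120 bases: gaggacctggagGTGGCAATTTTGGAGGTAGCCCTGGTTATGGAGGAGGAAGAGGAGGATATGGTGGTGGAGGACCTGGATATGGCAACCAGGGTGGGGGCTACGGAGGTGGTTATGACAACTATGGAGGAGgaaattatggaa
In Hnrnpd, known as AUF1, an mRNA-binding protein made in 4 forms, the 57-base exon was included in 55.0% of counts in replicate 1 and 62.5% in replicate 2, and the 147-base exon in 58.7% and 64.1%. Reads that spanned both showed every combination. Of 264 such counts, 37.9% held both exons, 23.9% the 147-base exon alone, 21.2% the 57-base exon alone and 17% neither. The paralog Hnrnpab included its 141-base exon less, in 25 of 112 and 37 of 122 counts. Hnrnpa2b1 included the 120-base exon in 71.2% (259 of 364) and 80.3% (392 of 488), with an unadjusted p of 0.00195 and an adjusted p of 1 by Fisher's exact test over 9223 exons. Its 36-base exon, the one that separates the B1 from the A2 protein, was included in 4.32% and 5.88%.

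Decay exons were found in hnRNP genes too. Hnrnpdl, a paralog of Hnrnpd, included a 105-base exon after its coding part in 11 of 54 counts in replicate 1 and 11 of 39 in replicate 2, and 16.7% of all its counts fell on nonsense_mediated_decay transcripts. Hnrnpll, best known for CD45 splicing in lymphocytes, included its 83-base exon in 5 of 44 and 6 of 48 counts. The 70-base decay exon of Hnrnpl reached 4.52% and 4.03%, and a 111-base intron of the same gene (chr7:28818533-28818643) was kept in 21.1% and 22.6%. In Hnrnpa1, 6.51% of counts lay on an annotated decay transcript, 8 in replicate 1 and 11 in replicate 2. Outside the coding sequence, a 45-base exon of Hnrnph2 was included in 47.9% and 52.2%, a 136-base exon of Hnrnpa2b1 in 59.5% and 71.2%, and a 26-base exon of Hnrnpc in 70.7% and 51.4%. The Hnrnpa2b1 exon was judged on 140 counts, while 1135 counts of the gene used the junction chr6:51463255-51463410 of other forms. Its inclusion is thus not a share of all messages of the gene. Overlapping exons of 169 and 166 bases in Hnrnpr were at 40.3% and 34.9%, and at 27.5% and 40.6%. Each was set against the same skipping counts (37 in replicate 1 and 41 in replicate 2), with the counts of the other exon left out. The 139-base coding exon of Hnrnph3 was at 87.0% in both libraries and the 72-base exon of Hnrnpk at 92.3% and 92.4%.

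**Figure D2:**
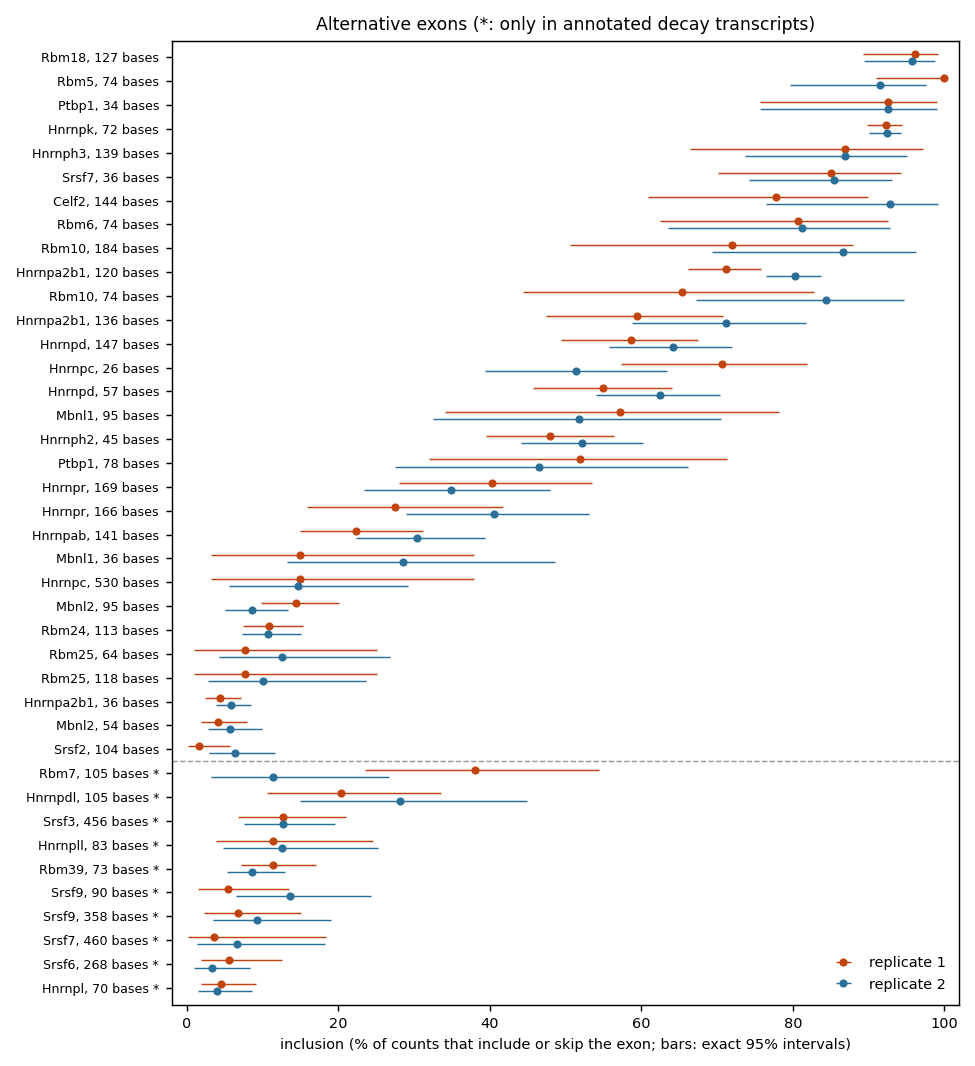
Inclusion of alternative exons of members, as percent of the counts that include or skip each exon, with exact 95% intervals for counting error. Orange is replicate 1 and blue replicate 2, and exons below the dashed line (starred) occur only in annotated decay transcripts. Most intervals of the libraries overlap, also those of Rbm7, around 38.1% and 11.4%. Those of the 120-base exon of Hnrnpa2b1 do not overlap (66.2 to 75.8% in replicate 1 and 76.5 to 83.8% in replicate 2).

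Hnrnpk (ENSMUSG00000021546.18) stood apart in how its reads were modelled, since 578 of its 578 counts in replicate 1 and 670 of 671 in replicate 2 fell on models that are not in the annotation. Most of these models shared 1 junction. The annotation has a 16-base exon at chr13:58393853-58393868, in capitals here between its neighbours.
Hnrnpk, 16 bases: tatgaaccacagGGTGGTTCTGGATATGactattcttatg
None of 1217 counts across the place was scored as including it, though 1 count used its annotated junction to the downstream exon. Of the 1217, 1168 (538 in replicate 1 and 630 in replicate 2) instead joined the downstream exon to a donor 16 bases past the annotated one. No annotated transcript has this junction, at chr13:58393775-58394059. The added 16 bases equal the skipped exon at 8 of 16 positions. Over all protein-coding genes, each of the 12 constitutive annotated exons of 3 to 16 bases with enough counts had an inclusion under 5%. Of these, 3 showed mostly a neighbour extended by the same length. The Hnrnpk exon is itself included in both numbers. Of 70 exons of 17 to 24 bases 13 were under 5%, and of 649 exons of 25 to 40 bases 1 was. The part of read alignment in the Hnrnpk junction was not tested. The authors' class names for these reads also differed between the libraries, with 376 NIC and 167 NNC counts in replicate 1 and 598 and 39 in replicate 2, so NIC and NNC are summed from here on.

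Among the Rbm genes, a group that shares an RNA-binding motif and a name rather than a role, Rbm38 led with 398 CPM in replicate 1 and 450 CPM in replicate 2. Rbm38 binds mRNAs of cell-cycle genes and takes part in erythroid and muscle splicing. Rbm24, which promotes exon use in muscle, had 284 and 288 CPM. The cold-inducible Rbm3 had 241 and 179 CPM, and Rbm39, a coactivator of splicing and transcription, 178 and 232 CPM. Rbm20, the repressor of titin exons mutated in dilated cardiomyopathy, had 101 and 84.5 CPM. Rbm42 had 110 and 126 CPM, and 29 of 35 Rbm genes had at least 10 counts in all.

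Decay forms in this family were led by Rbm7, a subunit of the nuclear exosome targeting complex. Its 105-base exon (chr9:48494283-48494387) was included in 16 of 42 counts in replicate 1 and 4 of 35 in replicate 2, and 15 of 43 and 4 of 40 counts of the gene lay on retained_intron or nonsense_mediated_decay transcripts. The counts in replicate 1 were the higher, at an unadjusted p of 0.00943 for the exon and an adjusted p of 1 (Fisher's exact test). Rbm39 included its 73-base exon in 20 of 176 and 20 of 232 counts, a 72-base exon in 4 of 181 and 3 of 239, and a 55-base exon in 2 of 182 and 5 of 240. Rbm38 had 41 of 421 and 46 of 479 counts on retained_intron or nonsense_mediated_decay transcripts, 9.74% and 9.60%, most of them on Rbm38-206 (28 and 27 counts). Rbm4 had 4 of 49 counts on such transcripts and Rbm5 had 7 of 104. In Rbm20 the 46-base decay exon was not seen in 138 counts, which allows an inclusion of up to 2.64% (exact 95% interval).

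Rbm24 kept a 113-base exon in 29 of 266 counts in replicate 1 and 29 of 270 in replicate 2, 10.9% and 10.7%. The annotation lists this exon in no coding and no decay transcript, and 51 of the 64 readable counts on new Rbm24 models had an early stop. The exons of 74 bases in Rbm5, Rbm6 and Rbm10, related genes that act on the splicing of apoptosis genes, are shown in capitals.
Rbm5, 74 bases: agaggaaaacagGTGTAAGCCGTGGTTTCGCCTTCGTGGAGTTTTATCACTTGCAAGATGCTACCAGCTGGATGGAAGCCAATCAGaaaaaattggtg
Rbm6, 74 bases: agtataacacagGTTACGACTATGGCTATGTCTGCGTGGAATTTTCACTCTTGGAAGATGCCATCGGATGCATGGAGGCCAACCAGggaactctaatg
Rbm10, 74 bases: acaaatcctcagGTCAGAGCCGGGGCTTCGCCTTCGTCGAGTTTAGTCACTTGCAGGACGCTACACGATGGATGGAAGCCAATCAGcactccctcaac
The Rbm10 and Rbm5 exons have the same base at 61 of 74 positions, the Rbm10 and Rbm6 exons at 47, and the Rbm5 and Rbm6 exons at 50. None has a whole number of codons. Inclusion was 39 of 39 and 43 of 47 counts in Rbm5, 25 of 31 and 26 of 32 in Rbm6, and 17 of 26 and 27 of 32 in Rbm10. In Rbm10 a 184-base exon upstream was used together with it: of 58 counts across both, 44 held both, 11 neither, 3 the 184-base exon alone and none the 74-base exon alone. Rbm25, a regulator of Bcl-x splicing, included exons of 64 and 118 bases in 10.6% and 9.09% over both libraries.

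Of the tissue-specific regulators, Qk had 250 CPM in replicate 1 and 282 CPM in replicate 2 and Mbnl2 193 and 196 CPM. All others were lower. Rbfox2 had 39.7 and 36.6 CPM, Celf2 40.6 and 26.3 CPM, Celf1 38.7 and 27.2 CPM, Mbnl1 24.6 and 33.8 CPM, and the repressor Ptbp1 30.2 and 31.9 CPM. Rbfox1 had 12.3 and 14.1 CPM, the neuronal paralog Ptbp2 11.3 and 10.3 CPM, and Ptbp3 4.72 and 8.45 CPM. Mbnl2 was above Mbnl1 in each library, by 204 to 26 and 209 to 36 counts.

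The muscleblind genes have alternative coding exons, of which the 54-base one is known to bear on nuclear localization. The 95-base exons of the paralogs share 81 of 95 positions and are shown with the other alternative exon of each gene, all in capitals.
Mbnl1, 95 bases: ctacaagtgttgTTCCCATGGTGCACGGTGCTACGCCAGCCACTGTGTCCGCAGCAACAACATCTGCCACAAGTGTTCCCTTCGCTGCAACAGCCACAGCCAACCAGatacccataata
Mbnl2, 95 bases: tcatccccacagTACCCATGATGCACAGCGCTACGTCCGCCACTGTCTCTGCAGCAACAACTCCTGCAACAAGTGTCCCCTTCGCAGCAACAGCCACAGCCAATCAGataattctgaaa
Mbnl1, 36 bases: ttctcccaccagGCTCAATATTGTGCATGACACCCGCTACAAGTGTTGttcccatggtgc
Mbnl2, 54 bases: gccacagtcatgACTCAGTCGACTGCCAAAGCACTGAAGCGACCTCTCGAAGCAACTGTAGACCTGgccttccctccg
Mbnl2 included its 95-base exon in 28 of 195 counts in replicate 1 and 17 of 199 in replicate 2, and the 54-base exon in 8 of 193 and 11 of 195. Of 392 Mbnl2 counts across both, 85.2% had neither, 9.95% the 95-base exon alone, 3.83% the 54-base exon alone and 1.02% both. Mbnl1 included its 95-base exon in 12 of 21 and 15 of 29 counts, and over both libraries in 54% (27 of 50). The exact 95% intervals of the paralogs did not overlap in either library, with bounds of 34% to 78.2% in Mbnl1 and 9.76% to 20.1% in Mbnl2 for replicate 1. Ptbp1 joined its 78-base and 34-base exons in 44.4% of 54 counts and had the 34-base exon alone in 46.3%. The 34-base exon, whose loss shifts the frame, was in 25 of 27 counts in each library. The 144-base exon of Celf2 was in 28 of 36 and 26 of 28.

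**Figure D3:**
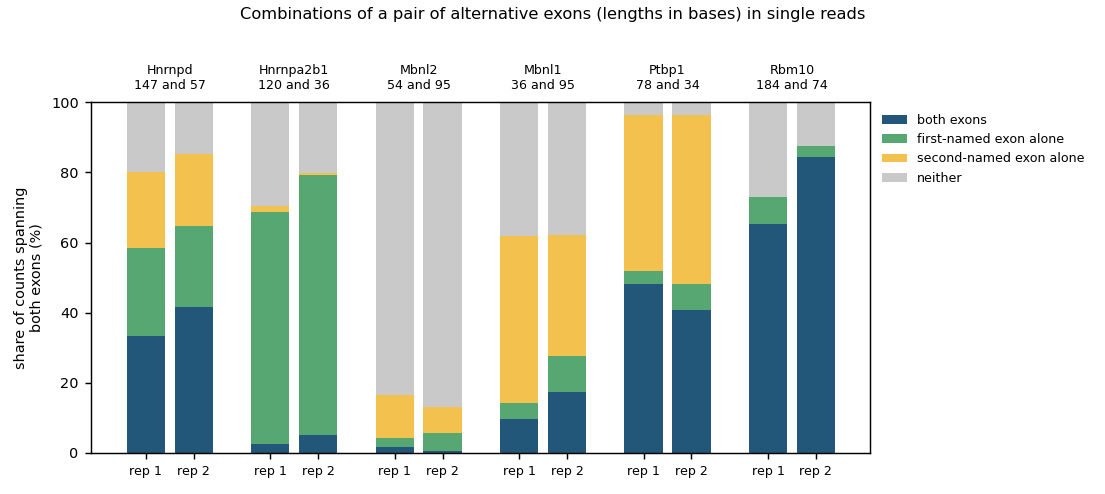
Combinations of paired alternative exons in single reads, as percent of the counts that span both, in replicate 1 and replicate 2 (bars side by side). Hnrnpd shows all 4 forms, Mbnl2 mostly neither exon (85.2% over both libraries), and Rbm10 mostly both (75.9%).

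Qk, a STAR protein of muscle and glia, drew 79.2% of its counts in replicate 1 and 73.3% in replicate 2 on new models, and most of these also shared 1 junction. The reads used an acceptor 24 bases inside the annotated exon (chr17:10216436-10217715) in 174 and 171 counts, while 55 and 84 counts used the annotated acceptor. The 24 bases between the acceptors are in capitals between the upstream exon and the rest of the exon.
Qk, 24 bases: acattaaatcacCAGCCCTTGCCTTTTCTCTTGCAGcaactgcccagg
They are a whole number of codons and end in AG, the letters that an acceptor has. Over both libraries 345 counts left them out and 139 kept them. In Mbnl2 the most used chain of introns was also absent from the annotation. It had 6 introns and neither alternative exon, and held 153 and 158 counts, 75.3% of the gene. Of 915 new chains of introns at members 247 were found in both libraries, and these held 82.3% of the 4511 counts on spliced new models. Of 331 unannotated junctions 70 were in both libraries and 13 had at least 10 counts.

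The members were set beside all other protein-coding genes by the class of model their reads matched. New models are those outside the annotation: ISM models match part of an annotated intron chain, NIC and NNC models combine known or new splice sites, and Genomic models overlap a gene without matching its splicing. The members had 1.67% and 1.38% of their counts on nonsense_mediated_decay transcripts (1.53% ± 0.21), and other protein-coding genes 0.193% ± 0.0049. On retained_intron transcripts the shares were 0.800% ± 0.077 for members and 0.903% ± 0.15 for the others. The difference was smaller than the SD of the others and larger than that of the members. New models carried 37.2% ± 0.38 of the members' counts and 19.3% ± 0.18 of the others', and 31.0% ± 0.57 without Hnrnpk. Without Hnrnpk and Hnrnpa2b1 the members' share was 28.1% ± 0.14. Per gene with at least 20 counts in each library, the median share on new models was 23.0% over members and 15.9% over all protein-coding genes. Among genes with at least 20 counts in each library, 29 of 52 members (55.8%) and 1404 of 5570 genes (25.2%) had any count on decay or retained_intron transcripts, but more members have such a transcript annotated (59.6% against 30.7% for decay). The median share on these transcripts was 0.802% over members and 0 over all genes, and it ranged from 0 to 1.54% for members over the settings tried. Among the 52 members, those with the highest share over both libraries were Rbm7 (22.9%), Hnrnpdl (17.5%), Srsf7 (14.4%), Srsf3 (12.4%), Rbm38 (9.67%), Rbm4 (8.16%), Hnrnph3 (6.94%), Rbm5 (6.73%), Hnrnpa1 (6.51%) and Hnrnpll (6.19%). Few counts lay behind some of them, and the order depended on the library: the share was 34.9% in replicate 1 and 10.0% in replicate 2 for Rbm7, 16% and 2.13% for Hnrnph3 (4 and 1 counts), 4.76% and 10.7% for Rbm4 (1 and 3 counts), and 4.17% and 8.93% for Rbm5 (2 and 5 counts).

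For new models the highest shares among members with at least 20 counts in each library were in Hnrnpk (99.9%), Mbnl1 (96.8%), Mbnl2 (89.6%), Celf1 (88.6%), Rbm20 (86.8%), Rbfox2 (85.2%), Celf2 (77.5%), Qk (76.1%), Rbm10 (75.3%) and Hnrnpa2b1 (53.5%). The classes behind them differed. In Rbm20 62.4% of counts were on ISM models, in Celf1 48.6% and in Rbfox2 46.9% were on Genomic models, and in Mbnl2 82.8% were on NIC and NNC models. Single-exon reads of Rbm38, Rbm24, Srsf1 and Srsf2 were mostly classed ISM in replicate 1 and Genomic in replicate 2, such as 12 ISM and 20 Genomic counts of Rbm38. The reverse was seen at Hnrnph2 (7 Genomic and 4 ISM counts), so ISM and Genomic shares are not comparable between the libraries. Reading each spliced model from an annotated start, 16.4% and 17.7% of the readable counts had an early stop (886 of 5401 in replicate 1 and 1101 of 6226 in replicate 2, 17% ± 0.90), and without Hnrnpk 7.65%. A further 1550 spliced counts could not be read to a stop. Of the 1987 early-stop counts, 1184 were in Hnrnpk, where 1184 of 1186 readable counts met such a stop. Most of its models carry the unannotated junction beside the 16-base exon, in which the part of read alignment was not tested. The same reading gave an early stop in 50 of 50 annotated decay transcripts and a full frame in 243 coding transcripts, while 10 coding transcripts gave an early stop, 60 no stop and 1 no start.

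Exons only in decay transcripts were included more in members than elsewhere by count, as a description. Of 23 such exons with at least 20 counts in each library, 8 (34.8%) reached 5% and 7 had no inclusion count, with a median of 1.92%. Of 497 such exons in other genes 11.9% reached 5%, and the median was 0. Alternative exons of any kind, with an inclusion from 5% to 95%, were 37 of 129 tested in members (28.7%) and 16.6% of all 9223 tested.

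**Figure D4:**
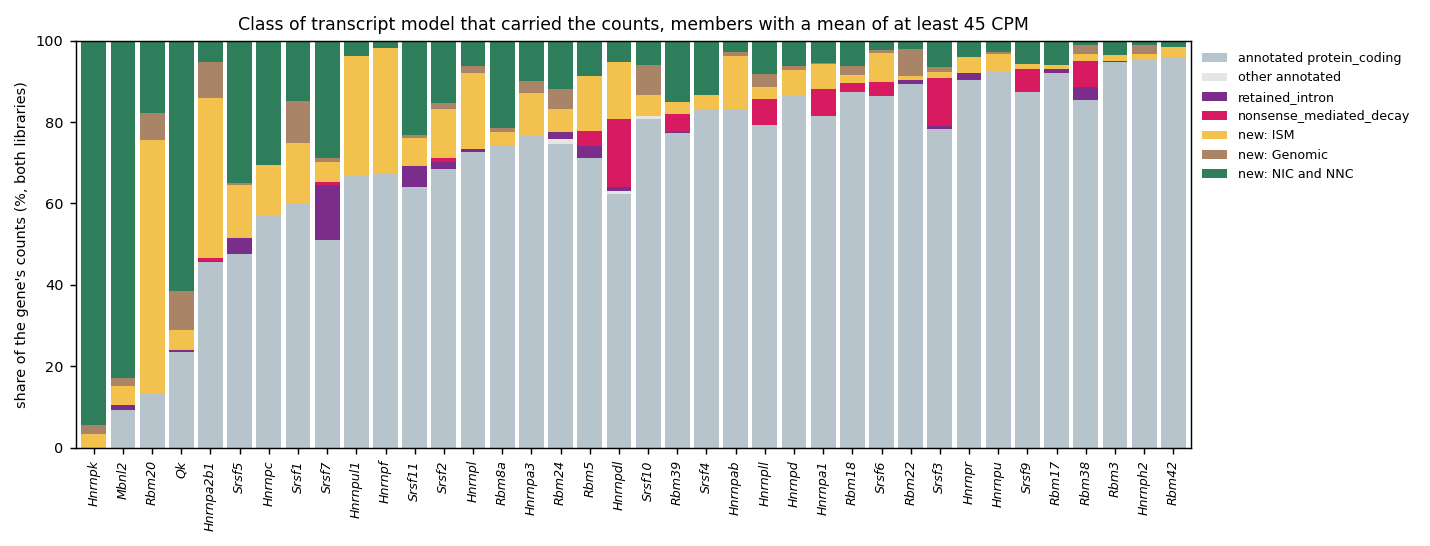
Class of transcript model that carried the counts of each member with a mean of at least 45 CPM, both libraries together, as percent of the gene's counts. Hnrnpk and Mbnl2 were mostly on NIC and NNC models (94.5% and 82.8%), Rbm20 mostly on ISM models (62.4%), and Hnrnpdl, Srsf3 and Srsf7 show the widest decay or intron segments.

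Gene counts were compared between the libraries with a two-sided exact conditional binomial test adjusted over 10162 genes, which holds counting error alone and compares these libraries, not conditions. Of 69 members tested, 2 passed at an adjusted p under 0.05, both lower in replicate 1, against 3.26% of all genes (331 of 10162) in either direction and 1.6% in that direction. Hnrnpa1, a shuttling repressor of exon use, had 114 counts in replicate 1 and 178 in replicate 2, a log2 ratio of -0.63 (adjusted p 0.011). Hnrnpul2 had 1 and 16 counts, and 14 of the 16 were single-exon ISM reads (log2 ratio -3.04, adjusted p 0.0129). The plain ratio of its levels was 0.0628, with an exact 95% interval for counting error of 0.0015 to 0.404. Neither passed in edgeR's exact test with a common dispersion (adjusted p 1 and 0.175), in which 22 of all genes did. That dispersion was estimated from the same 2 libraries taken as 1 group. Differences between the libraries thus entered the spread they were tested against, which makes passing harder. Hnrnph1 (16 and 39 counts, adjusted p 0.0717), Srsf3 (100 and 149, 0.0642) and Rbm3 (255 and 191, 0.0598) did not pass. At an unadjusted p under 0.05 there were 12 members, 1 higher and 11 lower in replicate 1, against 12.3% of all genes.

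Most members had more CPM in replicate 2. Of 69 log2 ratios 49 were below 0, with a median of -0.19 over members and -0.08 over all tested genes, of which 56.1% were below 0. Under TMM scaling the medians were -0.11 and 0.0026, with 45 of 69 members and 49.9% of all genes below 0. No member passed for the share on decay or retained_intron transcripts (29 tested, background 0.0712%), for the share on new models (52 tested, 0.215%) or for exon inclusion (129 exons in 42 genes, 0%), by Fisher's exact test adjusted over all genes or exons. At an unadjusted p under 0.05 there were 2 members for the first share (6.90%, against 1.28% of all genes), 3 for new models (5.77% against 5.01%) and 4 exons (3.10% against 1.19% of all exons). Hnrnpa2b1 had the smallest p for new models, with 406 of 704 counts in replicate 1 and 383 of 770 in replicate 2 (unadjusted p 0.00243, adjusted p 0.499).

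The libraries also differed in cell markers. Markers of atrial cells had 5255 counts in replicate 1 and 1308 in replicate 2, with 5 of 6 past the threshold. Erythroid markers had 17448 and 12932 counts (3 of 4 past), brown fat 175 and 95 (2 of 3), and lymphoid and thymus markers 3 and 53 (2 of 3 tested). Cardiomyocyte markers, at 3.5% ± 0.15 of counts, had 2 past in each direction, fibroblast markers (0.664% ± 0.016) 1 and macrophage markers (0.0283% ± 0.0083) 1. Endothelial (0.0641% ± 0.0010) and smooth muscle and pericyte markers (0.0813% ± 0.011) had none, and neural markers totalled 3 and 3 counts, with Elavl3 and Rbfox3 at 0. Their part in the differences of Hnrnpa1 and Hnrnpul2 was not tested.

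**Figure D5:**
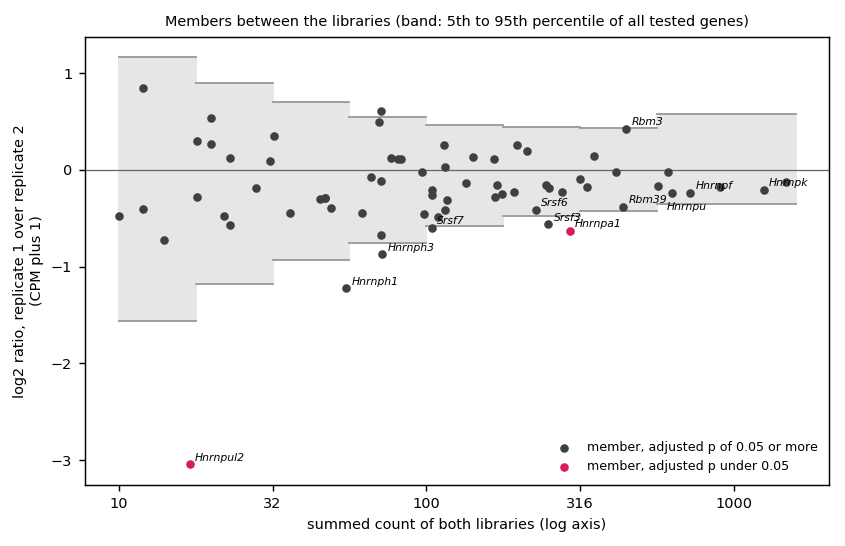
Log2 ratio of replicate 1 over replicate 2 (CPM plus 1) against the summed count for the 69 members tested, with names for an unadjusted p under 0.05. The grey band runs from the 5th to the 95th percentile of all tested genes in each count range, and red points mark Hnrnpa1 and Hnrnpul2, the members past the adjusted threshold.

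Other genes of the splicing machinery were counted in 4 lists, each with more counts in replicate 2. Spliceosome and branch point genes (17 of 17 detected) had 1574 counts in replicate 1 and 1814 in replicate 2, SR-like proteins and kinases (14 of 14) 438 and 508, other RNA-binding regulators (17 of 17) 1691 and 1992, and nonsense-mediated decay factors (12 of 12) 325 and 371. Their median log2 ratios were -0.24, -0.33, -0.30 and 0.01. The helicase Ddx5 was past the threshold, with 552 and 691 counts (log2 ratio -0.32, adjusted p 0.0071), and no other gene of these lists was. The median share on decay and retained_intron transcripts was 0.452%, 1.37%, 0.429% and 0, and the median share on new models 21.9%, 44.9%, 19.3% and 9.38%.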

How the data were processed

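Long-read cDNA libraries of 2 heart samples were analysed. The authors deposited whole-number counts of each transcript model, not normalized, per the file headers, and the lowest listed count is 1. Models belong to GENCODE M21 on mm10 or to new models of each library, with the authors' novelty classes, per the file headers. For the aligner, the authors' tool versions and their filters, the sources used here give nothing. Counts were summed per gene and scaled to the library total on reference genes (CPM). New models were matched between libraries by their introns.

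Genes with a summed count of at least 10 were tested by an exact conditional binomial test, and shares and exon inclusion with at least 20 counts in each library by Fisher's exact test, two-sided, with Benjamini-Hochberg adjustment over all genes or exons and a threshold of 0.05. Ratios were taken as log2 of replicate 1 over replicate 2 after adding 1 to each CPM. Intervals are exact Clopper-Pearson intervals at 95%, and intervals and the floor of 3 counts cover counting error only, since no molecular identifiers mark reads that came from 1 molecule. Scaling and dispersion alternatives used edgeR 4.0.16 and DESeq2 1.42.0 in R 4.3.3, and the rest Python 3.11.15 with scipy 1.17.1. The tests were checked on data simulated with counting error only, so the check does not cover further spread between the libraries.

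The members, the 4 lists of splicing genes and the 10 lists of cell markers were chosen with earlier results of these data known. Exon pairs, kept introns, reading frames, unannotated junctions, short exons, exon identities and antisense models were examined after the data had been seen. By rule the text names the 4 highest members of each family, every member past a threshold, the 10 with the highest share on decay and retained_intron transcripts and on new models, up to 25 exons with an inclusion of 5 to 95% by counts, and 14 cardiac regulators. Of these, 1 exon is not reported here. Other exons, introns and junctions were picked for naming once their values were known. The name pattern also matched 1 gene that is not protein-coding, which was left out. Near-identical copies of members, such as processed pseudogenes, may have taken some of their reads, and this was not tested.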

Additional observations from a re-analysis of the deposited data

Results flagged for a closer look

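Reads on the strand opposite to members were modelled by the authors as new antisense genes, which no comparison above uses. With 1 group there is no control sample, so the level set against is the floor of 3 counts. More than 3 such counts in each library were seen at 21 members. The same was not counted over other genes, so whether this is more than elsewhere is not known. Any overlap with the span of a gene was enough, so long genes had more room for such models. The largest sum was at Qk, where replicate 1 had 126 counts and replicate 2 had 109 (235 together), while Qk itself had 565. Mbnl1 had 86 (46 and 40), more than the 62 counts of the gene. Srsf10 had 50 (22 and 28). Over both libraries the antisense sums were 40 at Hnrnpl, 36 at Celf1, 33 at Hnrnph3 and at Mbnl2, 32 at Celf2, 29 at Hnrnpc, 24 at Rbfox2, 23 at Hnrnpu, and 22 at Rbm20 and at Rbm33. Lower sums were seen at Rbm15 (17), Rbfox1 (16), Rbm26 (13), Hnrnpr (12), Rbm24 (12), Hnrnpk (11), Rbm27 (10) and Rbm19 (8). In all, 52 members had 880 antisense counts (447 and 433 in the libraries, replicate 1 first), and 831 of the 880 were on single-exon models.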

How the results depend on the processing

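The log2 ratios of the 12 members with an unadjusted p under 0.05 kept their sign under every alternative run that held them. Shares, medians and counts were judged only as the same or moved, so a reversal could not show in them. On annotated models alone the members' share was 0.512%, retained_intron transcripts held 1.27% and nonsense_mediated_decay transcripts 2.44% of their counts, the median share on both was 1.54%, and inclusion of decay-only exons was 2.79%. Without ISM and Genomic models these class shares were 0.953% and 1.82%, and new models held 25.1%. With only NIC and NNC models called new the share was 21.1%. Without Hnrnpk, a setting chosen after seeing the data, retained_intron transcripts held 0.879%, new models 31.0% and early stops 7.65%, and without Srsf4, also added then, inclusion of decay-only exons was 3.92%. The median share on both kinds of transcript was 0.112% with a minimum of 10 counts. In the gene count test 4 members passed at a summed count of at least 50 (Hnrnpa1, Hnrnph1, Rbm3 and Srsf3) and 0 in edgeR's exact test, while Rbm3 joined Hnrnpa1 and Hnrnpul2 under TMM or DESeq2 scaling and Hnrnpk joined them after removal of a length trend. On annotated models alone Hnrnpa1, Hnrnpa2b1 and Rbm3 passed. With 1 library left out, the ranges were 0.621 to 0.693% for the members' share, 0.746 to 0.854% and 1.38 to 1.67% for retained_intron and nonsense_mediated_decay transcripts, 36.9 to 37.5% for new models, 4.13 to 5.0% for decay-only exons, 16.4 to 17.7% for early stops (a measure added after seeing the data) and 0 to 0.189% for the median share. The cause of these shifts was not tested beyond the smaller or other set of counts each setting uses. No paired analysis was possible because the series has 1 group. At these depths 1 count is near 1 CPM, and exons with fewer than 20 counts in a library were not tested.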

Other observations

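Outside the members, several genes of the splicing lists put a large part of their reads on decay or retained_intron transcripts, and these were picked after their values were seen. Clk1, a kinase of SR proteins, with 16 counts in replicate 1 and 21 in replicate 2, had 51.4% of these on such transcripts. The share was 28.6% in Luc7l, a component of the U1 particle, 17.8% in the helicase Ddx5 (221 counts), 17.2% in Tardbp, the TDP-43 gene known to autoregulate, 12.5% in U2af1, and 11.1% in Tia1. Among decay factors it was 12.5% in Upf3a and 18.2% in Smg5 (4 counts). Upf1, the central decay helicase, had none in 53 and 54 counts. The muscle kinase Srpk3, with 92 and 115 counts, was the highest of the listed SR-protein kinases.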
